A study of Homo sapiens with 3 samples.

Results

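The miR-148 and miR-152 family comprises mature miRNAs cut from 3 hairpins, MIR148A, MIR148B and MIR152. The 4 members described here are hsa-miR-148a-3p, hsa-miR-148a-5p, hsa-miR-148b-3p and hsa-miR-152-3p, written below without the species prefix. They were chosen by name from the 1149 mature miRNAs of the deposited table, and all 4 were listed. Small RNA was sequenced from CAL-27, an established human line of tongue squamous cell carcinoma, with 1 library in each of 3 groups. CC came from untreated control clones, and the library labelled Mock from clones exposed once to 2 Gy of X-rays. RR, the radioresistant group, had been exposed to 2 Gy a day in 2 cycles of 5 days, with a 2-week recovery after each cycle and isolation of single-cell clones at the end. All 3 groups derive from the same parental line, and whether a library held RNA of 1 clone or of several was not given in the sources used here. The treatment tag that names a dose of 2 Gy stands on RR and the tag that names irradiation alone stands on Mock, so each direction below refers to the library so labelled. As each group is 1 library, replicate error could not be estimated, and no p-values were computed.

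A miRNA guides an Argonaute protein to messenger RNAs that pair with its seed, bases 2 to 8 from the 5′ end. The 3p strands of the miR-148 and miR-152 hairpins are the guide strands and share a seed. They are known for repressing the maintenance DNA methyltransferase DNMT1, and miR-148a also for acting on DNMT3B, so that the family is seen as a brake on DNA methylation. The MIR148A and MIR152 loci are themselves reported to be silenced by methylation in several carcinomas. The 5p strand of each hairpin is the passenger, most of which is degraded after the duplex is opened.

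The guide strands are printed to show how little separates them, with the seed in capitals as DNA letters of the deposited table.
miR-148a-3p: tCAGTGCActacagaactttgt
miR-148b-3p: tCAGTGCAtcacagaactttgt
miR-152-3p: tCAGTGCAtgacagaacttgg
Counted from 1 at the 5′ end, miR-148b-3p differed from miR-148a-3p by 2 substitutions, C9T and T10C, directly after the seed. miR-152-3p differed from miR-148a-3p over 21 shared positions by C9T, T10G and T20G, and from miR-148b-3p by C10G and T20G. It was also the shortest, with 21 bases against 22. No other listed miRNA came within 4 mismatches of any of the 4 members. The rule for reads that match several of these sequences was not given in the sources used here. The lower levels of miR-148b-3p and miR-152-3p could include reads of miR-148a-3p. The share of such reads was not tested.

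The hairpins, from RefSeq on GRCh38.p14, are printed to place both arms, with the 5p arm and then the 3p arm in capitals. The arms were placed by matching the deposited sequences in the hairpins, and the RefSeq mature entries used here lacked miR-148a-5p.
MIR148A: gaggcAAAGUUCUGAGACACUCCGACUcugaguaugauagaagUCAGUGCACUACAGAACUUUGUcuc
MIR148B: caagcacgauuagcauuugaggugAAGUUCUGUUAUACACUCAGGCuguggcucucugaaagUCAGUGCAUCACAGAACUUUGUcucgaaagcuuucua
MIR152: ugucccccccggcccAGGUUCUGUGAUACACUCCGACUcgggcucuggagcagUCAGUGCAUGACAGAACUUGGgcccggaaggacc
MIR148A lies at chr7:25949919-25949986 on the minus strand, with miR-148a-3p at 25949922 to 25949943 and miR-148a-5p at 25949960 to 25949981. No other GENCODE release 29 gene overlapped it, and the nearest protein-coding gene, NFE2L3, was 202254 bases away. MIR148B lies at chr12:54337216-54337314 on the plus strand, in an intron of COPZ1, a subunit of the COPI vesicle coat, and of the overlapping non-coding gene AC078778.2, both on the same strand. MIR152 lies at chr17:48037161-48037247 on the minus strand, in an intron of COPZ2, the paralogue of COPZ1, also on the same strand.

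The match to the seed in the DNMT1 message is shown because DNMT1 is the target for which the family is best known. The motif TGCACTG, the reverse complement of the seed, was searched on the sense strand of messenger RNAs, using for each gene the GENCODE transcript with the longest 3′ UTR.
DNMT1: caggaatccccaacaTGCACTGa
The capitals mark the match, which begins at base 48 of a 3′ UTR of 321 bases, at chr19:10133613-10133619 of GRCh38 on the minus strand. It was the single match in that UTR and is followed by an A. The motif occurred in 3.02% of 1656 3′ UTRs of similar length, 0.8 to 1.25 times that of DNMT1, and in 13.9% of 3′ UTRs of 19132 genes. Messenger RNA was not analysed here, so nothing was measured on DNMT1 itself.

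Recovered library totals were 10473400 to 10769990 reads. The listed miRNAs took 16.3% of that total in CC, 20.5% in RR and 23.2% in Mock. Levels are given in rpm, reads per 1000000 reads of that total, with exact 95% Poisson intervals. Intervals cover counting error only, since each group is 1 library. They take each read as a separate molecule, and PCR copies cannot be told from separate molecules without molecular identifiers, so they may be too narrow. All 8 marker miRNAs taken for squamous epithelium had reads in all 3 libraries, summing to 39032 rpm in CC, 45502 in RR and 30009 in Mock. The lower Mock sum was that of miR-205-5p, at 25945 rpm in CC and 14174 in Mock, while the other 7 were higher in Mock than in CC, such as miR-200c-3p (13918 against 11739 rpm). Of 7 taken for blood cells 6 were listed, and their sum was 9.56 rpm in CC, 12.3 in RR and 410 in Mock. Most of the Mock sum was miR-486-5p at 398 rpm. miR-144-3p and miR-142-5p had no reads in CC and RR, whereas miR-451a stood at 0.743 rpm in CC, 0.764 in RR and 7.71 in Mock. The part of RNA from blood in the Mock values below was not tested. Markers of fibroblasts and smooth muscle, 4 of 6 listed, summed to 6.40 to 6.78 rpm in every library, most of it miR-143-3p. Within that sum miR-199a-5p (2 reads in CC, 12 in Mock, 0 in RR) and miR-199b-5p (2, 8 and 3) were highest in Mock. miR-143-3p (62, 47 and 66 reads) and miR-145-5p (5, 1 and 2) were lowest there. miR-122-5p, the miRNA of hepatocytes, stood at 2.96 to 5.45 rpm. The 4 markers of striated muscle summed to 341 rpm in CC, 409 in RR and 345 in Mock, nearly all of it miR-1-3p. Among them miR-206 was highest in Mock, at 25.5 rpm against 1.76 in CC and 3.63 in RR, where miR-1-3p was lowest. The sum of the 2 endothelial markers was 55.2 rpm in CC, 81.9 in RR and 66.9 in Mock. The part of muscle or endothelial RNA in values that are highest in RR or in Mock was not tested.

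miR-148a-3p was the dominant guide strand, with 1609 rpm in CC (1585 to 1633), 2482 rpm in Mock (2452 to 2512) and 2087 rpm in RR (2060 to 2115). It was thus highest in Mock and lowest in CC, and the 3 counting intervals did not overlap. Among the 1149 miRNAs it held rank 20 in CC, 20 in RR and 19 in Mock, next to miR-378a-3p above it and miR-26a-5p below it in mean level. On the log2 scale, after adding 1 rpm, RR over CC was 0.38, Mock over CC 0.62 and RR over Mock -0.25. As a ratio RR over CC was 1.30-fold (1.27 to 1.32) and Mock over CC 1.54-fold (1.51 to 1.57), while RR stood at 0.841 of Mock (0.826 to 0.856). RR over Mock stood just above 0, at 0.03, once the linear GC trend described below was removed. Its share of all miRNA reads was 0.990% in CC, 1.02% in RR and 1.07% in Mock.

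miR-148b-3p, the guide strand from the COPZ1 intron, followed the same order at a far lower level. It stood at 95.9 rpm in CC (90.2 to 101.9), 125 rpm in Mock (118 to 132) and 109 rpm in RR (103 to 116), again with intervals that did not overlap. RR over CC was 1.14-fold (1.04 to 1.24) and Mock over CC 1.30-fold (1.20 to 1.42), and RR stood at 0.872 of Mock (0.805 to 0.945). The order rested on the scale: the log2 ratio RR over CC of 0.18 became -0.14 with median-ratio scaling, -0.13 when scaled on the miRNAs below the top 10 and -0.15 as a share of miRNA reads, and Mock over CC of 0.38 became -0.13 by that last measure.

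miR-152-3p, the guide strand from the COPZ2 intron, had the fewest reads of the 4 members and the highest RR over CC ratio among them. It stood at 12.3 rpm in CC (133 reads, 10.3 to 14.6), 14.8 rpm in Mock (157 reads, 12.6 to 17.3) and 23.3 rpm in RR (244 reads, 20.5 to 26.4). RR lay above both other libraries, whose intervals overlapped each other. RR over CC was 1.89-fold (1.52 to 2.35), RR over Mock 1.58-fold (1.29 to 1.94) and Mock over CC 1.20-fold (0.943 to 1.52). On the log2 scale RR over CC was 0.86, place 6 from the top among the 208 miRNAs that averaged 10 rpm or more across the 3 libraries. It ranged from 0.55 to 0.91 over the 6 alternatives tried, which were 2 other pseudocounts, 3 scalings and a GC correction, and RR over Mock, 0.62, from 0.43 to 0.79. Mock over CC, 0.24, turned negative under 2 of the 6, to -0.24 at the lowest.

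miR-148a-5p, the passenger of the MIR148A hairpin, parted from its guide in the comparisons with Mock, while both were higher in RR than in CC. It stood at 43.0 rpm in CC (39.2 to 47.1), 44.9 rpm in Mock (40.9 to 49.1) and 62.2 rpm in RR (57.5 to 67.1). CC and Mock overlapped in their intervals, and RR lay above both. RR over CC was 1.45-fold (1.28 to 1.63), RR over Mock 1.39-fold (1.23 to 1.56) and Mock over CC 1.04-fold (0.916 to 1.19). Its log2 ratio RR over CC, 0.52, ranged from 0.19 to 0.53 over the 6 alternatives tried, and its Mock over CC, 0.06, turned negative under 4 of them, to -0.44 at the lowest.

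**Figure D1:**
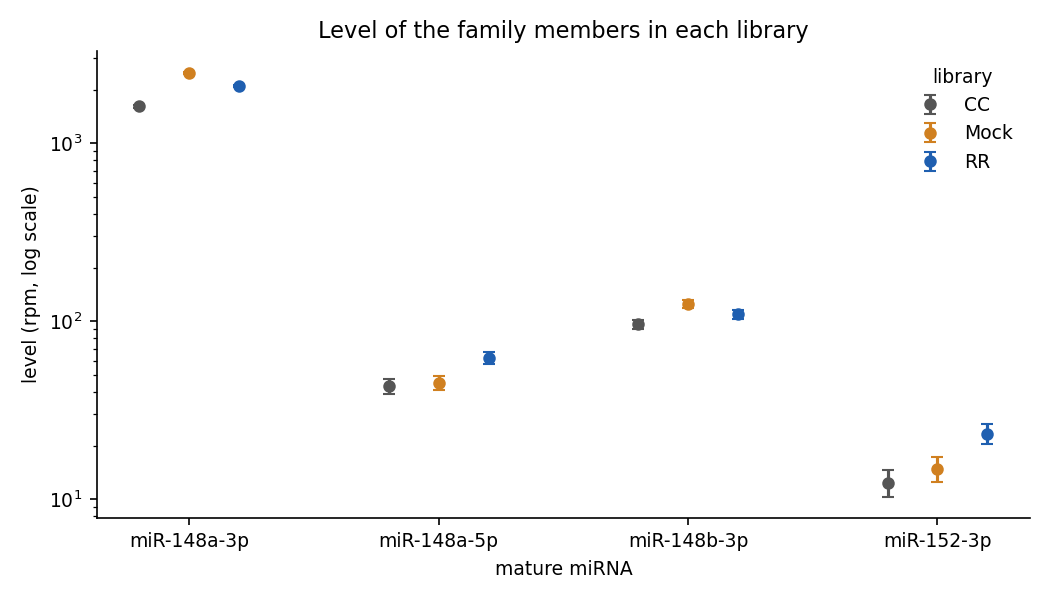
Level in rpm (log axis) of each of the 4 members in CC, Mock and RR, with bars for exact 95% Poisson intervals of 1 library each. miR-148a-3p and miR-148b-3p stand highest in Mock (2482 and 125 rpm), whereas miR-148a-5p and miR-152-3p stand highest in RR (62.2 and 23.3 rpm).

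Shares within the family do not depend on the library scale. The 3 guide strands summed to 1717 rpm in CC, 2621 rpm in the Mock library and 2220 rpm in RR, or 1.06% (exact 95% interval 1.04 to 1.07), 1.13% (1.12 to 1.15) and 1.08% (1.07 to 1.10) of the miRNA reads. miR-148a-3p gave 93.7% of that sum in CC, 94.0% in RR and 94.7% in Mock. miR-148b-3p gave 5.59% in CC (5.26 to 5.93), 4.77% in Mock (4.52 to 5.02) and 4.91% in RR (4.64 to 5.20), so that its share was highest in CC. miR-152-3p gave 0.719% in CC (0.602 to 0.852), 0.563% in Mock (0.479 to 0.658) and 1.05% in RR (0.923 to 1.19). The intervals of CC and Mock overlapped and that of RR lay above both.

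Set against its closest relatives, miR-152-3p was higher in RR by either yardstick. Reads of miR-148a-3p per read of miR-152-3p came to 130 in CC, 89.6 in RR and 168 in Mock. Between RR and CC that quotient stood at 0.688 (0.552 to 0.854), and between RR and Mock at 0.533 (0.433 to 0.655). Reads of miR-148b-3p per read of miR-152-3p came to 7.77 in CC, 4.68 in RR and 8.46 in Mock, with RR at 0.603 of CC (0.476 to 0.760) and 0.553 of Mock (0.443 to 0.690). The GC content of miR-152-3p is 47.6%, against 40.9% for both relatives. Neither these quotients nor the shares above were corrected for the GC trend described below. Without that trend the log2 ratio RR over Mock was 0.70 for miR-152-3p, 0.03 for miR-148a-3p and 0.09 for miR-148b-3p. Reads of miR-148a-3p per read of miR-148b-3p were more even, at 16.8 in CC, 19.1 in RR and 19.9 in Mock. There RR was 1.14 times CC (1.05 to 1.25) and Mock 1.18 times CC (1.09 to 1.29), both intervals excluding no difference, and RR was 0.964 of Mock (0.888 to 1.05), an interval that includes it.

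The arms of the MIR148A hairpin stood in different proportions in Mock. Of the reads of both arms miR-148a-5p gave 2.60% in CC (463 of 17792 reads, 2.37 to 2.85), 1.78% in Mock (477 of 26864, 1.62 to 1.94) and 2.89% in RR (651 of 22511, 2.68 to 3.12). Mock lay below both other libraries, and the intervals of CC and RR overlapped. The 3p strand outnumbered the 5p strand 37.4-fold in CC (34.1 to 41.1), 55.3-fold in Mock (50.5 to 60.7) and 33.6-fold in RR (31.1 to 36.4). The quotient of Mock to CC was 1.48 (1.30 to 1.69), that of RR to Mock 0.607 (0.538 to 0.685) and that of RR to CC 0.897 (0.793 to 1.01). The arms differ in GC content, 40.9% for 3p and 45.5% for 5p. With the linear GC trend of Mock against CC removed, the proportion in Mock was 50.5-fold, still above that of CC.

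**Figure D2:**
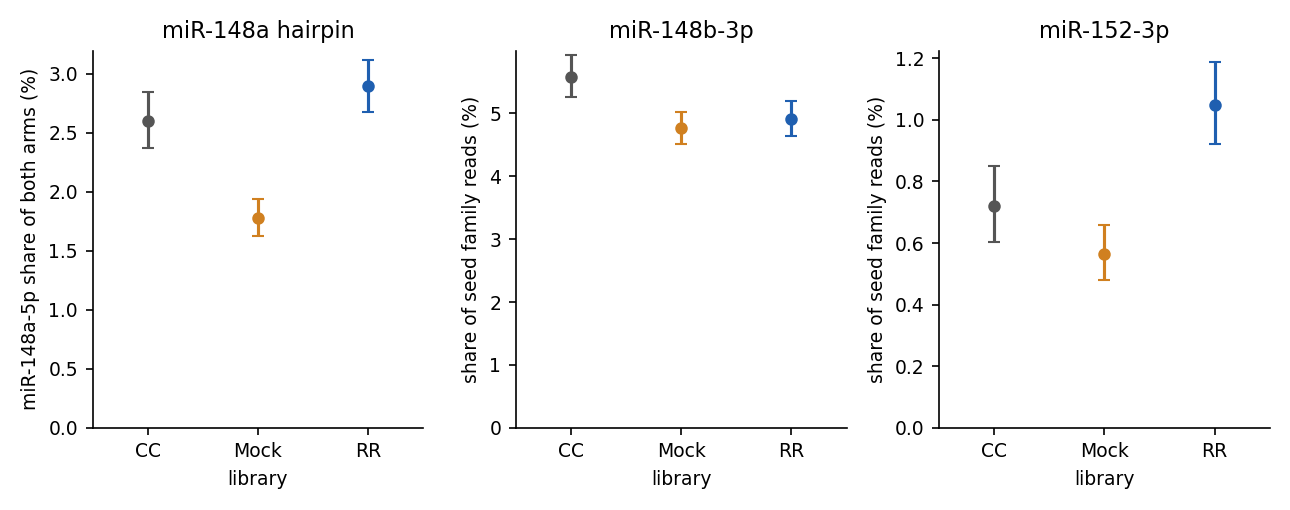
Share of miR-148a-5p in the reads of both MIR148A arms (left), and shares of miR-148b-3p (middle) and miR-152-3p (right) in the reads of the 3 guide strands, in percent, for each library with exact 95% binomial intervals. The 5p share is lowest in Mock at 1.78%, the miR-148b-3p share highest in CC at 5.59%, and the miR-152-3p share highest in RR at 1.05%.

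The passengers of the other hairpins were close to absent and lay outside the 4 members. miR-148b-5p had 3 reads in CC, 3 in the Mock library and 0 in RR, and miR-152-5p had 3, 0 and 5 reads, at or about the floor of 3 reads taken here, so that no ratio is given. For MIR148B the 5p share was 0.290% in CC (0.0598 to 0.844) and 0 of 1142 reads in RR, which allows a share of up to 0.263% by the floor of 3 reads of the total (exact 95% upper limit 0.322%). For MIR152 it was 2.21% in CC (0.457 to 6.31) and 2.01% in RR (0.655 to 4.62), and 0 of 157 reads in Mock, which allows up to 1.91% by the same floor (exact upper limit 2.32%). In CC the upper limit of MIR148B thus lay below the lower limit of MIR148A, 2.37%, whereas MIR152 could not be told from MIR148A at this depth.

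The comparison of RR with CC sets the 1 library of the radioresistant group beside the 1 library of untreated clones. No member differed by 2-fold or more: 0 of 4 were higher, beside 0.962% of the 208 miRNAs, and 0 of 4 were lower, beside 0.481%. All 4 had a log2 ratio above 0, as did 87.5% of the 208. The median of the members was 0.45 and that of the 208 was 0.36. miR-152-3p (0.86), miR-148a-5p (0.52) and miR-148a-3p (0.38) lay above that median and miR-148b-3p (0.18) below it. At 1.5-fold 1 of 4 was higher, miR-152-3p, beside 13.5% of all, but not under any of the 3 scalings. Scaling by median ratio moved the median of the 208 from 0.36 to 0.04 and the guide sum from 0.37 to 0.05.

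Mock over CC sets the 1 library labelled as exposed once beside the 1 untreated library. Again 0 of 4 members reached 2-fold higher, beside 12% of the 208 miRNAs, and 0 of 4 were lower, beside 3.85%. The split of the 208, 25 higher and 8 lower, turned round with the scale, to 11 and 14 after median-ratio scaling, 10 and 19 on the total without the top 10, and 7 and 31 by share of miRNA reads. The members' median log2 ratio was 0.31, against 0.28 for all, with miR-148a-3p (0.62) and miR-148b-3p (0.38) above that median and miR-152-3p (0.24) and miR-148a-5p (0.06) below it. At 1.5-fold 1 of 4 was higher, miR-148a-3p, beside 33.7% of all, but not under any of the 3 scalings. Ratios of Mock over CC fell as GC content rose across the 208 miRNAs, which are not independent replicates (Spearman correlation -0.55, with values taken from the same 2 libraries). With the linear trend removed, miR-148a-3p stood at 0.36, miR-148b-3p at 0.12, miR-152-3p at 0.17 and miR-148a-5p at -0.07, beside a median of 0.32 for all.

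RR over Mock sets the 1 library of repeated exposure beside the 1 library labelled as exposed once, and here the members parted. miR-152-3p (0.62) and miR-148a-5p (0.46) were higher in RR on the log2 scale, and miR-148a-3p (-0.25) and miR-148b-3p (-0.20) were lower. None passed 2-fold, with 0 of 4 higher beside 8.17% of the 208 and 0 of 4 lower beside 4.81%. At 1.5-fold 1 of 4 was higher, miR-152-3p, beside 22.1%, but not with median-ratio scaling. The median of the members was 0.13 and that of all 208 was 0.06. GC content tracked this comparison as well, with a Spearman correlation of 0.60. Without the linear trend miR-148a-3p (0.03) and miR-148b-3p (0.09) came to lie just above 0, while miR-152-3p (0.70) and miR-148a-5p (0.60) moved further up. Comparisons that share a library are not independent of each other.

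**Figure D3:**
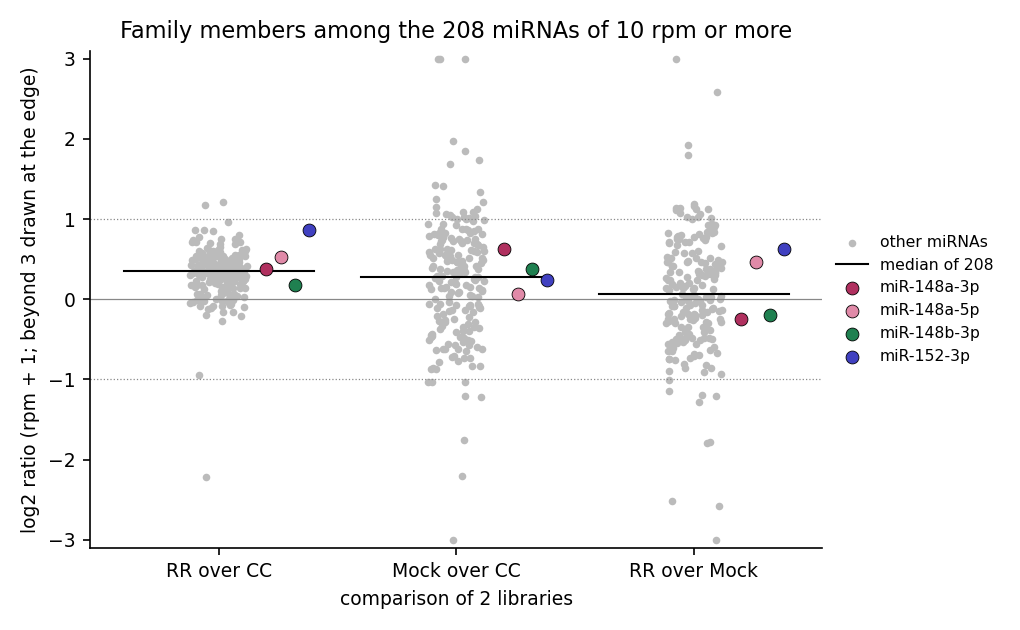
Log2 ratio after adding 1 rpm of the 4 members (coloured) and of the other miRNAs that averaged 10 rpm or more (grey, spread sideways at random) in 3 comparisons of 2 libraries, with the median of all 208 as a black line and dotted lines at 2-fold. No member passes 2-fold, and miR-152-3p lies highest of the 4 in RR over CC (0.86) and RR over Mock (0.62).

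**Figure D4:**
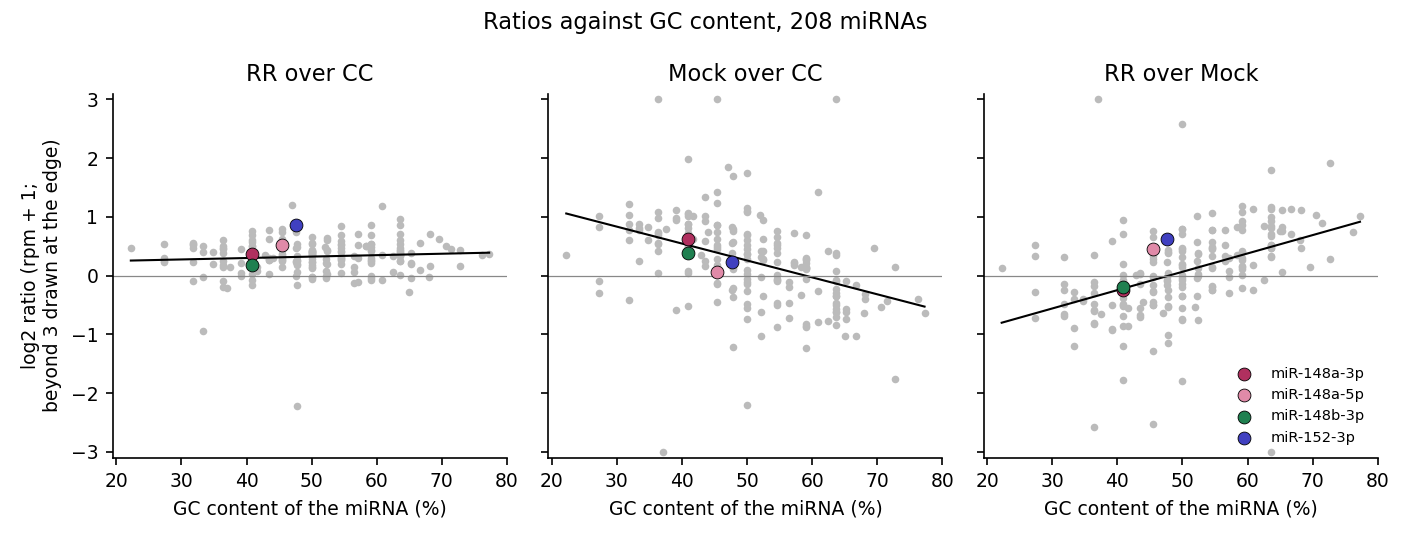
The same log2 ratios plotted against GC content in percent, with the least-squares line over the 208 miRNAs in black and the 4 members coloured. The line is nearly level in RR over CC and slopes in both comparisons with Mock (Spearman -0.55 and 0.60); in RR over Mock miR-148a-3p (-0.25) and miR-148b-3p (-0.20) overlap on the line, and miR-152-3p and miR-148a-5p lie above it.

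miRNAs whose 3 library values lay nearest to each guide strand were found by Euclidean distance on centred log2 values. For miR-148a-3p these were miR-378a-3p (distance 0.03), which lies in an intron of PPARGC1B, miR-17-5p (0.04) and miR-100-5p (0.04). For miR-148b-3p they were miR-23a-3p (0.03), miR-200a-5p (0.08) and miR-200b-5p (0.09). For miR-152-3p they were miR-345-5p (0.09), miR-769-5p (0.13) and the keratinocyte miRNA miR-203a-3p (0.13), whose level was 22.8 rpm in CC, 39.2 in RR and 23.7 in Mock. Likeness over 3 libraries is a weak description: 14 of 207 miRNAs lay within 0.1 of miR-148a-3p. Within the family, 36 miRNAs were nearer to miR-148a-3p than miR-148b-3p was (0.18), and miR-152-3p lay at 0.62 from both other guide strands. The passenger miR-148a-5p was nearer to miR-152-3p (0.24) than to its own guide (0.53).

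The miR-130 and miR-301 family carries the last 6 bases of the miR-148 seed 1 position nearer to its 5′ end, and its 5 listed strands were scarce. Their sum was 14.0 rpm in CC, 26.4 rpm in the Mock library and 20.9 rpm in RR, against 1717, 2621 and 2220 rpm for the miR-148 guides. The most abundant was miR-130a-3p, printed to show the shifted bases in capitals, with 5.57 rpm in CC, 8.40 in RR and 10.8 in Mock.
miR-130a-3p: cAGTGCAatgttaaaagggcat
No other listed miRNA held the full seed of the family at bases 2 to 8.

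Other miRNAs reported to target DNA methyltransferases were taken from a list of 10, of which 9 were listed and 5 had a mean of 10 rpm or more. miR-29a-3p, which targets DNMT3A and DNMT3B, stood at 621 rpm in CC, 1030 rpm in the Mock library and 726 rpm in RR. miR-185-5p stood at 149, 242 and 219 rpm, miR-126-3p at 53.9, 65.8 and 80.5 rpm, miR-101-3p at 15.7, 27.6 and 22.6 rpm and miR-140-5p at 7.61, 14.7 and 10.1 rpm. miR-126-3p was thus highest in RR and the other 4 in Mock. None of the 5 differed by 2-fold in any comparison, beside the shares of all miRNAs given above. At 1.5-fold 4 of 5 were higher in Mock over CC, all but miR-126-3p, beside 33.7% of all miRNAs. The count fell under alternatives, where the median of the 5 lay below the cut of 0.585 on the log2 scale. It was 0.50 with median-ratio scaling, 0.38 without the top 10 and 0.22 as a share of miRNA reads. Without the linear GC trend it was 0.47, and with a pseudocount of 10 rpm 0.55. The share of all miRNAs past 1.5-fold was not recounted there. That count holds for the filtered miRNAs only. The filter mean includes Mock, and miR-140-5p, at 7.61 rpm in CC, passed it with a mean of 10.8 rpm. Of the 4 listed below the filter, miR-143-3p was lower in Mock than in CC (4.42 against 5.76 rpm). The others, miR-29b-3p (12.9 against 6.96 rpm), miR-29c-3p (1.13 against 0.743) and miR-342-3p (4.80 against 4.18), were higher in Mock. The median log2 ratio of the 5 was 0.50 in RR over CC, 0.73 in Mock over CC and -0.27 in RR over Mock. Taken as shares of miRNA reads they were 0.18, 0.22 and -0.10, where miR-29a-3p stood below 1-fold in RR over CC, miR-126-3p below it in Mock over CC and miR-185-5p above it in RR over Mock. In each library miR-148a-3p was more abundant than any of the 5.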

How the data were processed

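Small RNA libraries were made with a ligation kit and size selection and sequenced on an Illumina NovaSeq, per the labels' protocols. Bowtie and GRCh38 are named in the submitters' processing notes; for their role, trimming, the miRNA reference and reads with several matches, details were not given in the sources used here. The values deposited by the authors under the name TPM behave as RPM: 100% were whole multiples, within 0.01 of a read, of 1 step per library, so whole reads were recovered. No count model was run, as each group has 1 library.

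Ratios carry exact Clopper-Pearson intervals of the share of reads, and quotients of ratios exact conditional odds ratio intervals; these compare libraries, not conditions. Log2 ratios have 1 rpm added to each value. The 208 miRNAs that averaged 10 rpm or more were counted, with 2-fold as the threshold. Named are the 4 members, the other arms of their hairpins, the 3 nearest profiles of each guide and list members past the filter. Of the neighbours in level only those of miR-148a-3p are named, and of the miRNAs with the shifted seed only the most abundant. Marker miRNAs and miR-148a-5p among the profiles were added. The members and lists were chosen with earlier results of these data known. For RR over CC simulated reads of 1149 miRNAs were used, and 30 of 30 planted 3-fold changes that passed the filter were recovered. The simulation held counting error only, without PCR or replicate spread, scale shift or GC trend, and filtered on the 2 libraries compared. With 3-fold changes set against a 2-fold threshold it checked the counting rules and not the reliability of the ratios. Intervals came from scipy 1.17.1, under Python 3.11.15 with pandas 2.3.3 and numpy 2.4.6; genes came from GENCODE release 29.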

Additional observations from a re-analysis of the deposited data

How the results depend on the processing

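The count of members past 2-fold stayed at 0 in each of the 3 comparisons under pseudocounts of 0.1 and 10 rpm, the 3 scalings and the GC correction. Other filters (1 or 100 rpm, none, or the 2 libraries compared, the last added after seeing the data) and a 4-fold threshold could not raise it, since all 4 members already passed the filter. At 1.5-fold, 0.585 on the log2 scale, it was 1 in each, and these calls ended under alternatives. miR-148a-3p in Mock over CC came to 0.39, 0.28 and 0.11 under the 3 scalings and 0.36 without the GC trend. miR-152-3p in RR over CC came to 0.55 to 0.57 under the scalings and 0.575 with a pseudocount of 10 rpm, and in RR over Mock to 0.54 with median-ratio scaling and 0.43 with that pseudocount. The summed guide strands, with log2 ratios of 0.37 (RR over CC), 0.61 (Mock over CC) and -0.24 (RR over Mock), moved to 0.0474, 0.38 and -0.33 with median-ratio scaling over all miRNAs with reads in every library, to 0.0521, 0.26 and -0.21 on the total of the less abundant miRNAs, leaving out the top 10, and to 0.0349, 0.10 and -0.0644 as a share of miRNA reads; a scaling moves all miRNAs alike. The ratio of the MIR148A arms in Mock went from 55.3 to 50.5 without the GC trend. The median of the members in Mock over CC, 0.31, became -0.03 on the total without the top 10 and -0.18 as a share of miRNA reads. Depth limits the passenger strands of MIR148B and MIR152, and miR-152-3p rests on 133 to 244 reads. No paired analysis was possible because each group has 1 library, and for the same reason no replicate could be left out.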

Other observations

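Seed matches were also counted in the coding parts of the DNA methyltransferase messages, on the same transcripts and strand. The coding part of DNMT3B held 2 matches to TGCACTG, that of DNMT3A 1 and that of DNMT1 none, where 20.4%, 22.3% and 36.3% of coding parts of similar length (0.8 to 1.25 times) held at least 1. The 3′ UTRs of DNMT3A and DNMT3B held none, where 41.6% of 831 and 13.3% of 2831 3′ UTRs of similar length held at least 1. These are matches of letters and not measured sites.

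The deposited table files the members under different family names. It lists miR-148a-5p and miR-148b-3p under mir-148, and miR-148a-3p and miR-152-3p under mir-2957, although the 3 guide strands share bases 2 to 8 and both arms of MIR148A come from 1 hairpin. A sum by the deposited family name would therefore split the guide strands.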
